A study of Homo sapiens with 4 samples.

Results

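The genes described here are the cytokines IL11, IL6, LIF and CLCF1, the receptor chains IL11RA, IL6R, IL6ST, LIFR and OSMR, and the feedback inhibitor SOCS3. They were chosen by symbol from the 57820 gene identifiers counted in the series. All 10 were found and all 10 passed the filter on low counts, IL6 through the TD libraries alone. Bulk polyadenylated RNA was sequenced from 2 libraries of TD cells and 2 libraries of parental A549 cells. A549 is an established human lung adenocarcinoma line of epithelial morphology. TD cells are the same line under lasting treatment with TGF-β (transforming growth factor beta), added at 2 ng/ml at 3-day intervals, and are described in the labels as mesenchymal-like. Both kinds of cell grew in DMEM with fetal bovine serum and gentamicin. The labels give neither the length of TGF-β exposure before harvest, nor whether TD is 1 clone, nor whether replicate libraries were made from different cultures. The p-values therefore rest on a library-to-library spread that could be purely technical.

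Cytokines of the interleukin-6 family act through receptor complexes that share the signalling chain gp130, encoded by IL6ST. IL-11 and IL-6 first bind a private chain, IL11RA or IL6R, and the pair then engages gp130. LIF instead joins LIFR to gp130, and CLCF1 (cardiotrophin-like cytokine) needs a further chain, CNTFR, for signalling. OSMR pairs with gp130 for oncostatin M. Signalling activates JAK kinases and the transcription factor STAT3, which induces SOCS3, and SOCS3 in turn blocks the receptor. In lung fibroblasts and epithelium, IL11 is a known transcriptional target of TGF-β.

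Gene counts came to 28237849 and 44133836 in the TD libraries, against 26729278 and 29381872 in the A549 libraries. The second TD library was the deepest of the 4 and also stood apart in its pseudogenes, which took 0.373% of its gene counts, against 1.11% in the first TD library and 1.13% and 1.15% in the A549 libraries. The epithelial genes CDH1, EPCAM, KRT8, KRT18 and KRT19 were all lower in TD, and the mesenchymal genes CDH2, VIM, FN1, ZEB1 and SNAI2 were all higher. EPCAM (3 and 8 counts in TD) and KRT19 (0 and 3) passed the filter on low counts only through the A549 libraries. SNAI2, with 0 counts in A549, passed only through the TD libraries. By edgeR (adjusted p below 0.05), 21.6% of all tested genes were higher in TD and 21.4% lower. The 10 leukocyte markers summed to 5.88 to 6.69 CPM in TD and 7.58 to 8.19 CPM in A549 (counts scaled to a common library size, with TMM scaling factors). They went both ways. Of 5 tested, 1 was higher and 2 lower, against 21.6% and 21.4% of all tested genes. ITGAX was higher in TD (4.72-fold), while CD8A (27.5-fold, with 2 and 4 counts in TD and 69 and 72 in A549) and CD14 (3.13-fold) were lower. ITGAX would not have passed the filter on the A549 libraries alone, nor CD8A and CD14 on the TD libraries alone. The T cell marker CD3E had 0 counts in every library, and the pan-leukocyte marker PTPRC had 4 and 3 counts in TD and 0 and 2 in A549. The 7 endothelial markers found summed to 1.43 to 1.52 CPM in TD and 0.169 to 0.503 CPM in A549. Only ERG was tested, and it passed the filter only through the TD libraries. It was called higher, 13.5-fold by counts (95% exact interval 4.35 to 67.6), with 20 and 29 counts in TD and 2 and 1 in A549. Of those not tested, KDR, TEK and TIE1 had 0 counts in A549 and VWF had 0 in TD. CLDN5 had 1 and 4 counts in TD and 8 and 4 in A549. The part of such cells in the results below was not tested. In bulk RNA, more cells expressing a gene and more RNA per cell cannot be told apart.

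Among the 10 genes, 6 were higher in TD, 1 was lower and 3 were not called by edgeR's quasi-likelihood test (adjusted p below 0.05, Benjamini-Hochberg over all 17785 tested genes). Over all tested genes, 21.6% were called higher, 21.4% lower and 43% in either direction. Both TD libraries lay on the same side of both A549 libraries for 9 of the 10 genes, against 74% of all tested genes. The members' median log2 change of TD over A549 was 0.72, against -0.04 over all tested genes. The members were chosen with earlier results of these data known, so these differences from all tested genes are not a test. IL11 and IL6 were 104-fold and 76.1-fold higher, while the other called members changed by 1.55-fold to 2.54-fold. Of the 6 that rose, IL6 passed the filter only through the TD libraries, where it was high.

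The promoters of IL11 and IL6 are shown because these are the genes with the largest changes of the set. The sequences cover 250 bases upstream of the RefSeq start site and are on GRCh38.p14, another build than the GRCh37 (hg19) of the counts. IL11 lies on the minus strand at chr19:55370464-55370713 and IL6 on the plus strand at chr7:22726950-22727199. Capitals mark the matches to any of 4 motifs, each searched on both strands. These were TGANTCA for AP-1, TTCNNNGAA for STAT factors, GTCTAGAC for SMAD factors and, for NF-kB, a run of 3 G, any 2 bases, 3 T and 2 C.
IL11: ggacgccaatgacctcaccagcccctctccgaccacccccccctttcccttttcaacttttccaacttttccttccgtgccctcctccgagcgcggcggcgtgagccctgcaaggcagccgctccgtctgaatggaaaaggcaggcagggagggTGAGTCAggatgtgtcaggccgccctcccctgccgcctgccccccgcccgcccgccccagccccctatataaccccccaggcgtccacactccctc
IL6: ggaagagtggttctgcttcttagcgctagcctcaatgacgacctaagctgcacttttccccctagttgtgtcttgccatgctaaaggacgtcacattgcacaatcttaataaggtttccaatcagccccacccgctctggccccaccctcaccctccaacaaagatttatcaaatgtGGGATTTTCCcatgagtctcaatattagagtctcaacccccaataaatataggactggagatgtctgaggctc

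The IL11 window held 1 match, the AP-1 motif TGAGTCA, which begins 96 bases upstream of the start site. The IL6 window held 1 match, the NF-kB motif GGGATTTTCC, which begins 73 bases upstream. Of 35116 RefSeq promoter windows of the same length, 6.57% held the AP-1 motif, 6.57% the STAT motif, 1.73% the NF-kB motif and 0.182% the SMAD motif. No motif overlapped another in these windows. The STAT motif was found in 2 of the 3 LIFR windows, and none of the 4 motifs was found in the windows of IL11RA, IL6R, IL6ST, OSMR or SOCS3. The promoters of LIF and CLCF1 were not analysed here. A match is a description of the letters and not evidence of binding.

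IL11, a cytokine that signals through IL11RA and gp130, had 33893 and 52186 counts in the TD libraries, against 337 and 339 in the A549 libraries. This corresponds to 1168 and 1283 CPM in TD and to 12.1 and 11.4 CPM in A549. Both TD libraries lay far above both A549 libraries. The mean was 1226 ± 81.5 CPM in TD and 11.8 ± 0.482 CPM in A549 (SD, n = 2 each), a 104-fold difference (log2 change 6.70, SE 0.12, adjusted p = 3.08e-05 by edgeR's quasi-likelihood test). The change of IL11 ranked 128th from the top among the 17785 tested genes. Per kilobase of annotated exon, its level ranked 61st in TD and 6985th in A549 among the 17338 tested genes with a length. IL11 alone took 0.12% and 0.118% of all gene counts in the TD libraries and 0.00126% and 0.00115% in the A549 libraries.

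IL6, the founding cytokine of the family and a classical inducer of the acute-phase response, was barely detected in parental cells. The TD libraries held 518 and 804 counts and the A549 libraries 7 and 7, or 17.9 and 19.8 CPM in TD and 0.251 and 0.236 CPM in A549. The groups did not overlap, and the difference was 76.1-fold (log2 change 6.25, SE 0.17, adjusted p = 4.38e-05 by edgeR). The A549 value rests on 14 counts in all, and IL6 passed the filter only through the TD libraries. A fold change close to that of IL11 therefore went with a far lower TD level, which per kilobase of exon was 9.09 ± 0.656 CPM for IL6 and 459 ± 30.5 CPM for IL11 (SD, n = 2). IL6 shares part of its locus with STEAP1B and the antisense gene AC073072.1, which had at most 26 and 7 counts in any library.

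LIF, which holds embryonic stem cells in a self-renewing state in mice and signals through LIFR, was abundant in both kinds of cell. It had 169 and 161 CPM in TD, against 150.1 and 127 CPM in A549. The higher A549 library lay below both TD libraries, but this gap was smaller than the distance between the A549 libraries. The log2 change was 0.25 with a 95% interval of -0.02 to 0.53 and was not called (adjusted p = 0.121 by edgeR). LIF was called higher by DESeq2 (log2 change 0.27, adjusted p = 0.0163) and without TD replicate 2 (0.28, adjusted p = 0.0307). The antisense genes LIF-AS1 and AC004264.1 at its locus had at most 12 and 103 counts in any library, against 3763 to 6557 for LIF.

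CLCF1, a B cell-stimulating and neurotrophic cytokine, was the only member called lower. It had 13.1 and 13.6 CPM in TD, against 37.7 and 30.0 CPM in A549, with no overlap. The level was 2.54-fold lower in TD (log2 change -1.34, SE 0.14, adjusted p = 0.00173 by edgeR). CLCF1 lies over RAD9A on the opposite strand, which had 370 to 546 counts in TD and 643 to 749 in A549, while CLCF1 had 379 to 553 counts in TD and 889 to 1050 in A549. Reads that the counting placed in more than 1 gene were left out. The strand setting of the counting is not given in the sources used here. How reads from the stretch shared by CLCF1 and RAD9A were assigned was not tested.

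**Figure D1:**
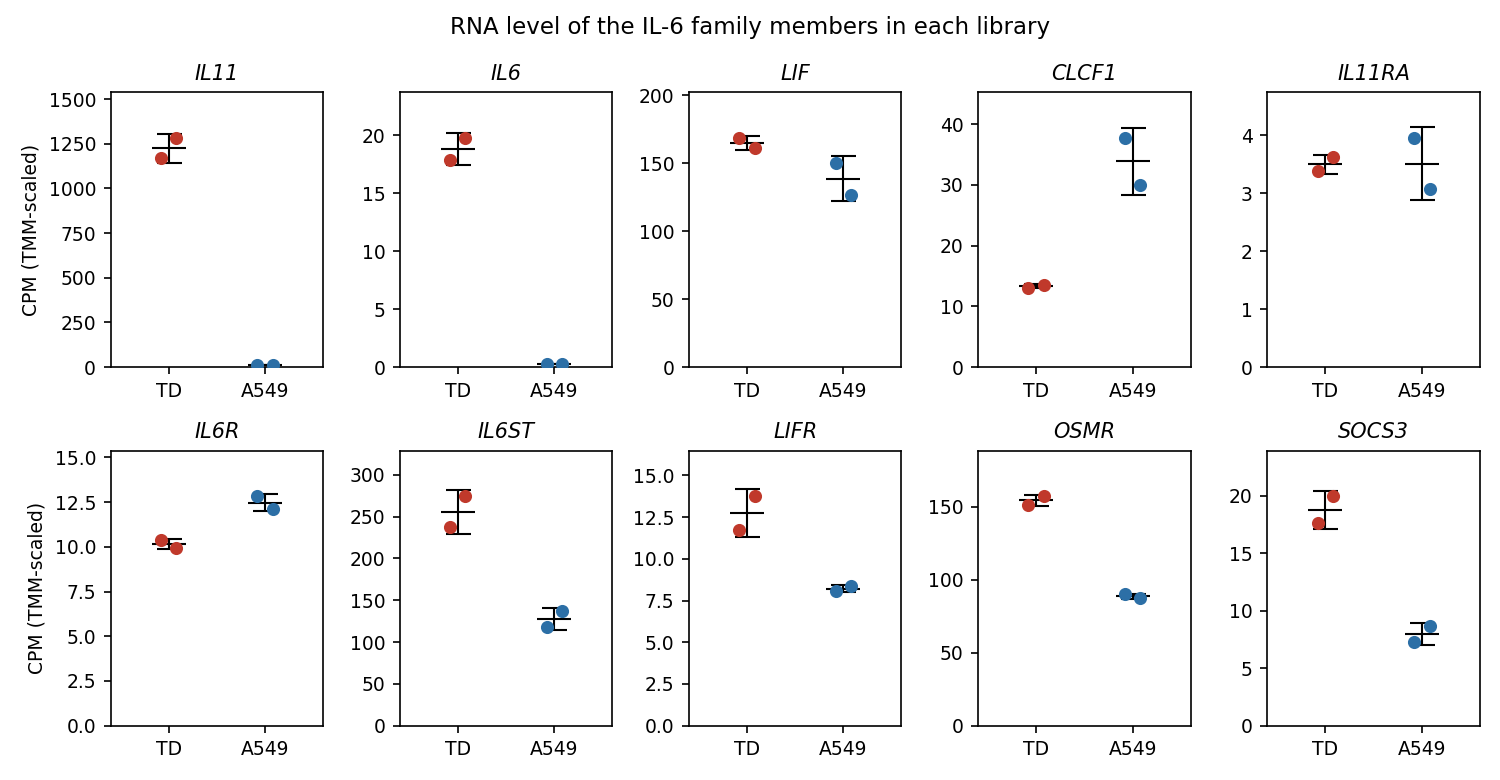
CPM of each of the 10 genes in the 2 TD (red, left) and 2 A549 (blue, right) libraries, each panel on its own linear axis from 0. Points are libraries, and bars give mean ± SD. IL11 and IL6 sit near the bottom of their panels in A549, CLCF1 is lower in TD, and the points of the groups overlap only for IL11RA.

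The makeup of the ligand RNA differed between the groups. Of all reads on the 4 ligand genes, IL11 took 85.4% (95% exact binomial interval 85.1 to 85.8) and 86.8% (86.6 to 87.1) in the TD libraries, against 6.05% (5.44 to 6.71) and 6.78% (6.10 to 7.52) in the A549 libraries. LIF took 12.3% and 10.9% in TD, against 75.0% and 75.3% in A549. CLCF1 took 0.955% and 0.92% in TD, against 18.9% and 17.8% in A549. IL6 took 1.31% and 1.34% in TD, against 0.126% and 0.14% in A549. The intervals cover counting error only. Dividing by exon length left IL11 first in TD, at 88.3% and 89.4%, and LIF first in A549, at 61.4% and 62.0%.

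**Figure D2:**
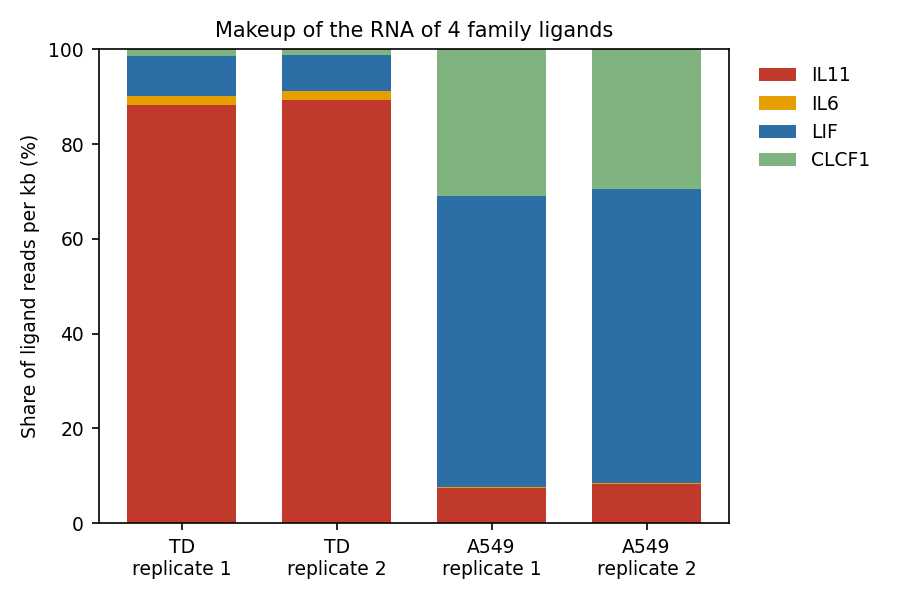
Share of each ligand in the reads per kilobase of exon of IL11, IL6, LIF and CLCF1, by library, in percent. IL11 fills 88.3% and 89.4% of the TD bars, while LIF fills 61.4% and 62.0% and CLCF1 31.0% and 29.5% of the A549 bars.

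The chains that carry the signal rose moderately. IL6ST, which encodes gp130, had 237 and 274 CPM in TD, against 118 and 137 CPM in A549. Both TD libraries were above both A549 libraries, a 2.01-fold difference (log2 change 1.01, SE 0.12, adjusted p = 0.00296 by edgeR). On the strand opposite to IL6ST lies the processed pseudogene AC016596.1, with 502 and 97 counts in TD and 499 and 560 in A549, all small beside the 3286 to 11147 counts of IL6ST. The processed copy IL6STP1 had at most 11 counts in any library.

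OSMR, the chain that joins gp130 to receive oncostatin M and also pairs with IL31RA, had 152 and 157 CPM in TD and 90.0 and 87.7 CPM in A549. The groups were well apart at a 1.74-fold difference (log2 change 0.80, SE 0.07, adjusted p = 0.00122 by edgeR). Its neighbour RICTOR overlaps it on the opposite strand and had 1077 to 1495 counts in TD and 1180 to 1367 in A549. LIFR, the signalling partner of gp130 for LIF, had 11.8 and 13.7 CPM in TD, against 8.08 and 8.36 CPM in A549. It was 1.55-fold higher in TD (log2 change 0.63, SE 0.13, adjusted p = 0.0147 by edgeR). LIFR was no longer called when A549 replicate 1 (0.57) or A549 replicate 2 (0.63) was left out, except with protein-coding genes alone in the fit.

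The private receptors of the cytokines with the largest rises were not called in either direction. IL11RA, the chain that binds IL-11, had 3.38 and 3.62 CPM in TD and 3.95 and 3.07 CPM in A549. The groups overlapped, and the log2 change was -0.0045 with a 95% interval of -0.55 to 0.54 (adjusted p = 0.989 by edgeR). IL11RA overlaps GALT on the same strand, which had 285 to 368 counts in TD and 361 to 412 in A549, against 91 to 147 for IL11RA in any library. IL6R, the chain that binds IL-6, had 10.4 and 9.96 CPM in TD, against 12.8 and 12.1 CPM in A549. Both TD libraries were below both A549 libraries, with a log2 change of -0.30 (95% interval -0.56 to -0.03) that was not called (adjusted p = 0.0732 by edgeR). With protein-coding genes alone in the fit, IL6R was called lower (log2 change -0.31, adjusted p = 0.0359), as it was with a filter of 5 CPM in 2 libraries (-0.33, adjusted p = 0.0488). The antisense genes IL6R-AS1 and LIFR-AS1 had at most 3 and 8 counts in any library. OSMR-AS1 had 1.28 and 1.45 CPM in TD and 0.898 and 0.64 CPM in A549 and was not called (adjusted p = 0.0985 by edgeR).

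SOCS3, the feedback inhibitor that binds gp130 and JAK kinases, had 17.6 and 20.0 CPM in TD and 7.33 and 8.70 CPM in A549. Both TD libraries lay above both A549 libraries, and SOCS3 was 2.35-fold higher in TD (log2 change 1.23, SE 0.13, adjusted p = 0.00221 by edgeR).

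**Figure D3:**
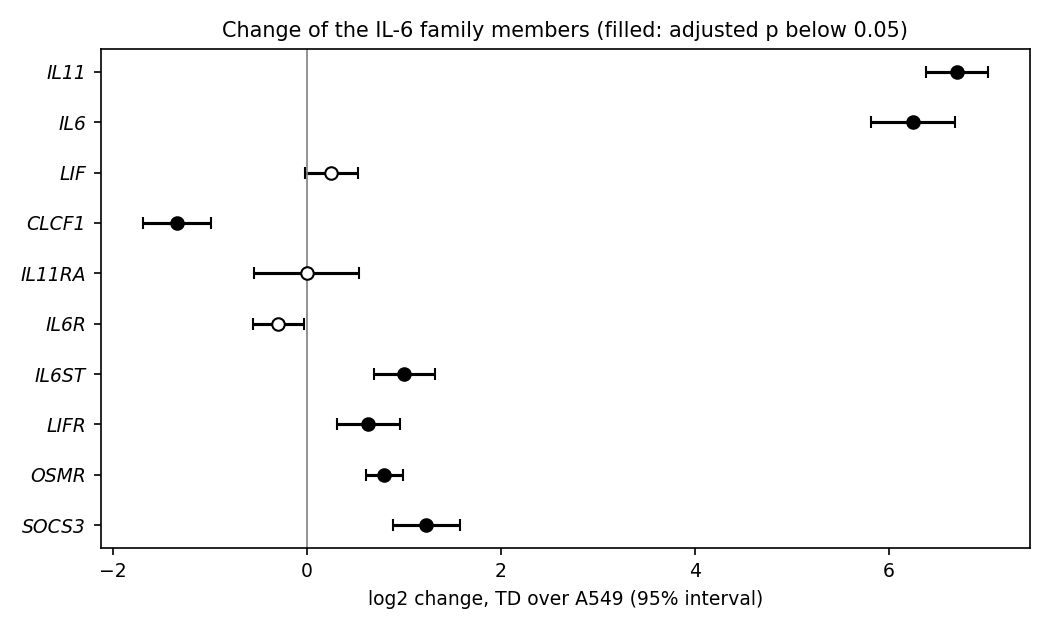
Log2 change of TD over A549 for each gene with its 95% interval from the edgeR fit, ligands at the top, receptor chains below them and SOCS3 last. Filled points are called and open points are not. IL11 at 6.70 and IL6 at 6.25 lie far to the right of the other called rises, which run from 0.63 to 1.23.

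Levels between genes can be set side by side only per length. Per kilobase of exon, IL11 led in TD at 459 CPM. It was followed by LIF at 41.5, IL6ST at 27.5 and OSMR at 21.5 CPM, and the spreads of IL6ST and OSMR (SD 2.82 and 0.554) were smaller than the gap between them. Per kilobase of the principal transcript IL6ST stood at 28.2 and OSMR at 27.9 CPM, which did not differ beyond the spread of IL6ST. IL6 at 9.09, SOCS3 at 6.87 and CLCF1 at 6.75 CPM formed the next group, in which SOCS3 and CLCF1 did not differ beyond the spread of SOCS3 (SD 0.61) and changed places when the length of the principal transcript was used. IL6R at 1.58, LIFR at 1.07 and IL11RA at 0.819 CPM came last. In A549 the order opened with LIF at 34.9 and CLCF1 at 17.1 CPM. IL6ST at 13.7 and OSMR at 12.4 CPM did not differ beyond the spread of IL6ST (SD 1.41), and this pair also changed places with the other length. IL11 stood at 4.41, SOCS3 at 2.93, IL6R at 1.93, IL11RA at 0.822, LIFR at 0.693 and IL6 at 0.118 CPM. IL11RA and LIFR did not differ beyond the spread of IL11RA in A549 (SD 0.146). The chain that binds IL-11 thus stood among the lowest of the set in both lines, including TD, where its ligand stood highest.

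**Figure D4:**
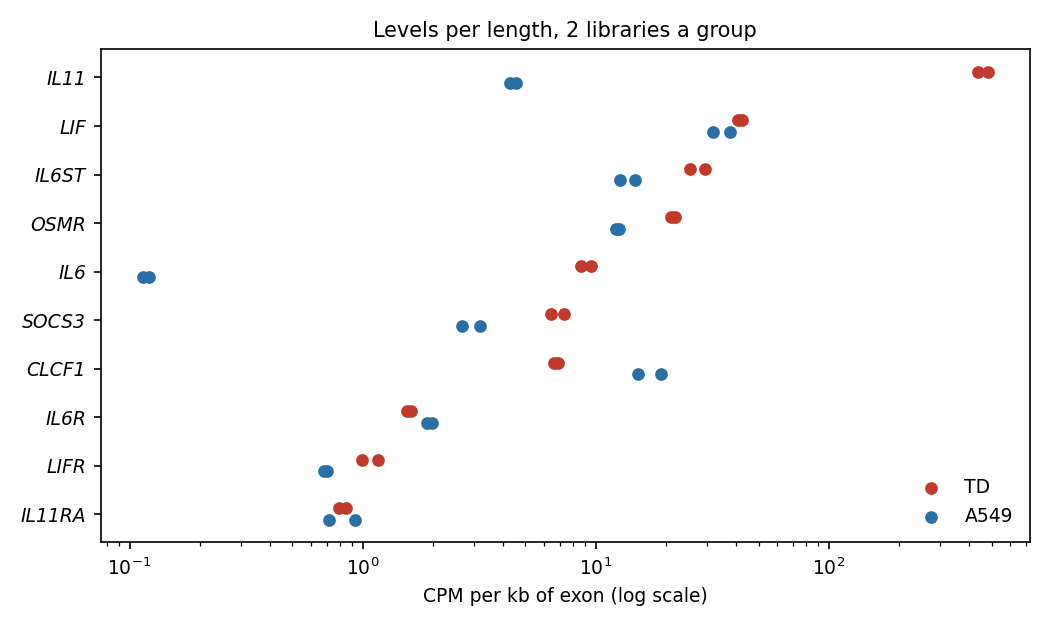
CPM per kilobase of annotated exon on a log axis for the 10 genes, with 2 TD (red, upper) and 2 A549 (blue, lower) libraries each, ordered by TD level. The TD and A549 points of IL11 and IL6 are far apart, those of LIF are close, and those of IL11RA overlap.

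The rest of the family was sparse. Of 10 further ligands and receptors, 5 passed the filter on low counts. Of these, 1 was called higher by edgeR, against 21.6% of all tested genes. IL31RA, the partner of OSMR for interleukin 31, had 1.76 and 1.77 CPM in TD and 1.01 and 1.15 CPM in A549 and was not called (adjusted p = 0.0791 by edgeR). More of these further genes were called higher without TD replicate 1, as was so over all tested genes. With protein-coding genes alone in the fit, leaving out TD replicate 1 did not change their number. The cytokine genes OSM, CTF1, IL27 and IL31 and the receptor gene CNTFR were not tested. OSM had 6 and 8 counts in TD and 1 and 3 in A549. CNTFR had 0 counts in both TD libraries and 1 and 2 in A549, and IL27 had 0 counts throughout. The limit that a count of 0 allows is 3 counts, or 0.068 to 0.112 CPM by library before TMM scaling.

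JAK kinases, STAT factors and adaptors went both ways, with 3 of 16 tested higher and 8 lower. Over all tested genes the shares were 21.6% higher and 21.4% lower. Among those that fell, STAT5A passed the filter only through the A549 libraries. STAT3, the main factor downstream of gp130, had 116 and 125 CPM in TD, against 71.6 and 68.7 CPM in A549 (1.72-fold higher, log2 change 0.78, SE 0.08, adjusted p = 0.00181 by edgeR). STAT5B, a factor of growth hormone and cytokine signalling, rose by 0.65 on the log2 scale. The third that rose was PTPN11, the phosphatase SHP2 that binds gp130. STAT4, a factor of interleukin 12 signalling, was 51.1-fold lower in TD, with 0.448 and 0.492 CPM in TD and 23.0 and 25.8 CPM in A549. STAT5A had 4 and 2 counts in TD, against 30 and 23 in A549, a log2 change of -3.32 (95% interval -4.91 to -1.74). The change was -4.12 without TD replicate 1 and -2.71 without TD replicate 2. With A549 replicate 1 or 2 dropped, the change of STAT5A was -3.08 or -3.54 and was not called. It was called in both cases with protein-coding genes alone in the fit. STAT2, a factor of interferon signalling, was 5.13-fold lower. JAK2 was 2.02-fold lower, while JAK1, the kinase most tied to gp130, had 157 and 167 CPM in TD and 149 and 160.3 CPM in A549 and was not called (log2 change 0.06, adjusted p = 0.573). The list's median log2 change was -0.21. Fewer genes of the list were called lower with either A549 library left out, as was so over all tested genes. With protein-coding genes alone in the fit, the list's number of calls did not drop.

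Among the other inhibitors and the proteases that shed receptors, 5 of 14 tested were higher and 3 lower, with a median of 0.19. The shares over all tested genes were 21.6% higher and 21.4% lower. SOCS2, a brake on growth hormone signalling, was 2.19-fold higher, with 16.7 and 17.1 CPM in TD and 7.65 and 7.79 CPM in A549 (adjusted p = 0.000957 by edgeR). SOCS6 rose by 0.48 on the log2 scale. It was not called without A549 replicate 1 (log2 change 0.36), except with protein-coding genes alone in the fit. The other rises were SOCS4, PTPN1 and ADAM10, a sheddase of IL6R. PTPN6, the phosphatase SHP1, was 7.29-fold lower, and ADAM17, the other main sheddase of IL6R, was 1.59-fold lower with 49.5 and 50.2 CPM in TD and 76.9 and 82.0 CPM in A549. PIAS1, an inhibitor of activated STAT factors, was the third that fell. Fewer genes of this list were called higher with either A549 replicate left out, as was so over all tested genes. With protein-coding genes alone in the fit, fewer were called only when A549 replicate 1 was left out. SOCS7 was not analysed here.

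Genes known to respond to STAT3 went both ways. Of 22 tested, 9 were higher and 11 lower, with a median log2 change of -0.38. Over all tested genes 21.6% were higher and 21.4% lower. Among those that fell, LRG1 and FOS would not have passed the filter on the TD libraries alone. VEGFA, the angiogenic growth factor, was 7.73-fold higher and JUNB, an AP-1 subunit, 4.55-fold higher. NNMT, an enzyme of nicotinamide methylation, and MCL1, a survival protein, were 3.49-fold and 3.46-fold higher, and MYC, CCND1, HIF1A, TIMP1 and IL4R rose as well. FOS, another AP-1 subunit, had 0.172 and 0.443 CPM in TD, against 20.2 and 20.6 CPM in A549, a log2 change of -5.96. It rested on 5 and 18 counts in TD, against 561 and 611 in A549, and was -5.50 without TD replicate 1 and -6.85 without TD replicate 2. LRG1, a secreted glycoprotein, had 1 count in TD and 33 in A549 and was 40.0-fold lower by counts (95% exact interval 6.70 to 1627). With A549 replicate 1 or 2 left out, the log2 change of LRG1 was -5.07 or -5.06 and was not called. It was called in both cases with protein-coding genes alone in the fit. Lower levels were also measured for the kinase gene PIM1, the C/EBP factors CEBPB and CEBPD, and the interferon-responsive genes IRF1 and ICAM1. Many of these genes also answer to other pathways, so the list is not specific to STAT3. Fewer genes of the list were called lower with A549 replicate 1 left out, as was so over all tested genes. With protein-coding genes alone in the fit, the list's number of calls stayed close to that with all libraries.

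Acute-phase genes are the classical output of IL-6 in liver cells. Of 19 such genes, 8 passed the filter on low counts. Of these, 7 fell and 1 rose, against 21.4% lower and 21.6% higher over all tested genes. Of those that fell, FGA, FGG, LBP, SAA1 and CFB had at most 7 counts in either TD library. They passed only through the A549 libraries, where they were higher, so the tally does not describe the list. The A549 counts were themselves low for LBP (13 and 12), SAA1 (27 and 29) and CFB (37 and 78). FGA and FGG, which encode fibrinogen chains, had 0.0689 and 0.123 CPM and 0.0689 and 0.0738 CPM in TD, against 151 and 172 CPM and 38.3 and 44.1 CPM in A549. The log2 changes were -10.60 for FGA and -9.09 for FGG (adjusted p = 3.08e-05 for both by edgeR). FGB, the third fibrinogen chain, fell by 6.21 on the log2 scale. LBP, which binds bacterial lipopolysaccharide, had 0 counts in TD and 25 in A549, at least 10.1-fold lower when 3 counts over the group stand for 0. SAA1, serum amyloid A, had 2 counts in TD and 56 in A549, 33.9-fold lower by counts (95% exact interval 8.97 to 287). The complement genes C3 and CFB also fell. SERPINA1, the antiprotease alpha-1 antitrypsin, was the member that rose, with 4.82 and 5.85 CPM in TD and 2.26 and 2.93 CPM in A549. With A549 replicate 1 or 2 dropped, its log2 change was 0.82 or 1.21 and was not called. It was called in both cases with protein-coding genes alone in the fit. The other 11 acute-phase genes did not pass the filter. All 11 had at most 15 counts in any library.

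AP-1, NF-kB and SMAD genes, SP1 and the inhibitors SMAD7 and NFKBIA were also mixed. Of 16 tested, 4 were higher and 6 lower, with a median log2 change of -0.02. Over all tested genes these shares were 21.6% and 21.4%. The AP-1 subunits JUNB, FOS and FOSL1 were counted among the STAT3-responsive genes instead. JUN, an AP-1 subunit, was 6.50-fold higher, with 133 and 140.1 CPM in TD and 22.7 and 19.3 CPM in A549 (adjusted p = 0.000105 by edgeR). SMAD7, an inhibitor that TGF-β induces, was 5.72-fold higher, and FOSL2, a further AP-1 subunit, 2.52-fold higher. SMAD4, the shared SMAD, rose by 0.34 on the log2 scale. ATF3 was 4.19-fold lower and NFKBIA, the inhibitor of NF-kB, 2.91-fold lower. The others that fell were NFKB2, REL, SMAD2 and SMAD3, while NFKB1 and RELA were not called.

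**Figure D5:**
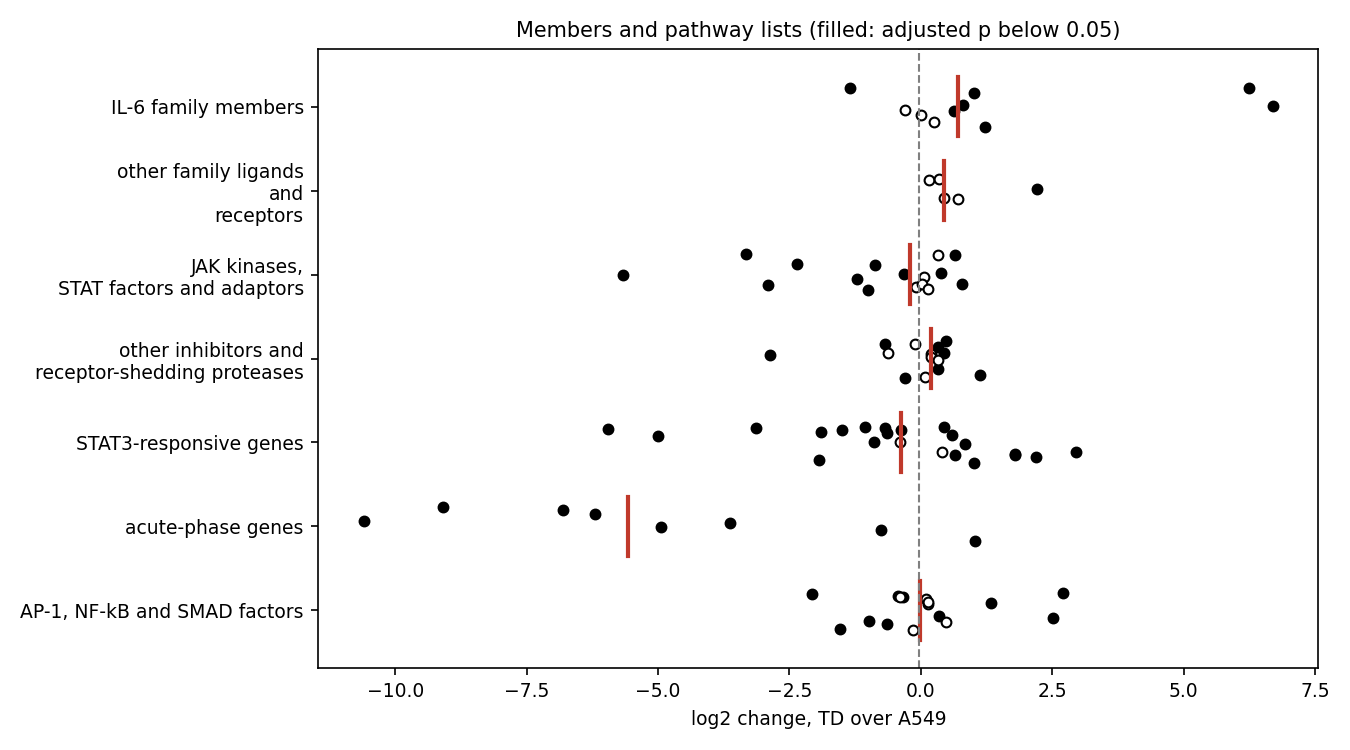
Log2 change of TD over A549 for every tested gene of the 10 members and of 6 lists of the same pathway, 1 row a list. Filled points are called (LBP, with 0 counts in TD, at its fitted value), red bars are medians of the genes tested and the dashed line is the median of all tested genes (-0.04). The STAT3-responsive genes spread to both sides, and the acute-phase row holds only the 8 of 19 genes that passed the filter, 5 of them through the A549 libraries alone.

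The profiles most like those of IL11, IL6 and LIF were sought among 13207 other tested protein-coding genes by Euclidean distance of centred log2(CPM + 1) over the 4 libraries. With 2 groups of 2, this measures little beyond the size of the TD to A549 difference in log2(CPM + 1). Adding 1 shrinks that difference for genes near 0 CPM in 1 group, so near neighbours can differ widely in log2 change. Nearest to IL11 were ABLIM3 (distance 0.257), DPYSL3 (0.32) and XYLT1 (0.342), with log2 changes of 7.88, 9.39 and 8.88. ABLIM3 had 118 and 129.9 CPM in TD and 0.467 and 0.573 CPM in A549. Nearest to IL6 were SNAI2 (0.015), VSTM4 (0.0847) and DNER (0.0952). SNAI2, a repressor of epithelial genes, had 14.1 and 15.6 CPM in TD and 0 counts in both A549 libraries, at least 287-fold higher in TD. Among the nearest to LIF were HAUS5 (0.0296) and CFAP52 (0.0349), neither of which was called.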

How the data were processed

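Raw counts per gene were deposited by the authors, 1 file for each of 4 libraries. FastQC 0.11.8, STAR 2.7.1a and HTSeq 0.11.2 are named with build GRCh37 (hg19), per the submitters' processing notes. Which annotation release and strand setting were used is not given in the sources used here. Libraries were strand-specific TruSeq mRNA libraries, per the labels' protocols. Reads given to no gene stayed out of library sizes and tests: 6.12% to 7.79% lay outside genes, 2.34% to 2.56% in more than 1 gene, and 8.08% to 9.22% aligned more than once. Symbols, gene types and exon lengths came from GENCODE 29, which matched 52338 of 57820 identifiers, and promoters from RefSeq (GRCh38.p14), which matched 8 of the 10 genes. Lengths come from another build than the counts.

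TD was compared with A549 by edgeR 4.0.16 in R 4.3.3 (quasi-likelihood test, TMM, default filter with a minimum count of 10, Benjamini-Hochberg over all tested genes). The standard error is the change divided by the root of F. The scripts were tested on simulated data with the dispersion capped. The test recovered 61.9% of genes changed by 1 on the log2 scale and 82% of those changed by 2. It called 0.047% of unchanged genes. A gene that was not called may therefore still have changed. DESeq2 1.42.0, limma-voom (limma 3.58.1), other scalings and filters, a replicate block and leaving out each library were alternatives. The members and lists were chosen with earlier results of these data known, and beside the members the text names the largest changes of each list. Members of lists named beyond that were chosen after their values were seen. No pair of libraries was identical. Some genes that these rules name are not reported here.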

Additional observations from a re-analysis of the deposited data

How the results depend on the processing

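Over 16 alternatives, of which 4 (each library left out with protein-coding genes alone) were chosen after seeing the data, IL11, IL6, CLCF1, IL6ST, OSMR and SOCS3 kept their direction and their call. Their log2 changes ranged over 6.63 to 6.78, 6.17 to 6.33, -1.52 to -1.19, 0.86 to 1.12, 0.76 to 0.84 and 1.07 to 1.34 in that order. LIF was called in 4 of the 16, IL6R in 3 and LIFR in 14. The uncalled change of IL11RA (-0.0045) turned positive with DESeq2 size factors (0.0095), the DESeq2 test (0.011), limma-voom (0.015) and the replicate block (0.0057). With 1 library left out it ranged from -0.20 to 0.15, and it was 0.17 without A549 replicate 1 and with protein-coding genes alone. The number of members lower was 2 with the filter of 5 CPM, with protein-coding genes alone, and with those alone without TD replicate 1. Other family genes called higher were 2 with protein-coding genes alone, also without A549 replicate 1 or TD replicate 1. In that setting without A549 replicate 1, 3 inhibitors were higher. With the filter of 5 CPM, 0 acute-phase genes were higher and 4 lower, since fewer were tested. Leaving out 1 library in turn gave 1 to 4 other family genes higher, 5 to 8 JAK and STAT genes lower, 1 to 7 inhibitors higher, 6 to 12 STAT3-responsive genes lower and 0 to 1 acute-phase genes higher. Over all genes it gave 2114 to 5329 higher and 2236 to 6140 lower. The cause was not tested, but without A549 replicate 1 or 2 the coefficient of variation was 34.1% or 34.0%, against 20.1% with all libraries and 8.06% without A549 replicate 1 and with protein-coding genes alone. With the replicate number as a block, 6 members were higher and 1 lower, as without it, and over all genes 2964 were higher and 2847 lower. Deviations of same-numbered libraries had a correlation of -0.0965 across genes, so the numbers are not read as pairs.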
